A study of Mus musculus with 3 samples.

Results

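The 37 genes described here make cholesterol and fatty acids or control, store and export them: 8 enzymes of the mevalonate and isoprenoid steps, 11 enzymes that make squalene and turn it into cholesterol, 5 genes of SREBP control, 5 genes around the liver X receptors (LXRs), 3 genes of sterol storage and lysosomal release, and 5 genes of fatty acid synthesis. They were taken from a fixed list of symbols, and all 37 matched 1 gene each among the 55536 genes of the table, of which 22028 are protein-coding. The measurements came from total RNA sequencing of primary CD3 T cells of the mouse spleen. All 3 libraries form 1 group, with no treated or mutant counterpart: B6CASTF1/J, F1 mice whose mothers were C57BL/6 and whose fathers were CAST/EiJ, female, virgin and 66 days old. Each library was made from 300 ng of RNA with a directional kit and a mix of synthetic spike-in transcripts. Reads were assigned to a single reference genome, so the maternal and paternal alleles of the cross were not analysed. The labels number the libraries as biological replicates 1 to 3, each with technical replicate number 1. They also list 3 biosamples under 1 donor record, and whether the libraries come from separate mice is not stated. SDs and p-values here therefore describe how far these samples differ, and that difference may be technical.

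Cholesterol is built from acetyl-CoA through mevalonate, isoprenoid units, squalene and a chain of sterol intermediates, and fatty acids are built from the same acetyl-CoA. Both pathways are driven by SREBPs, transcription factors made as membrane proteins of the endoplasmic reticulum. SCAP escorts them to the Golgi for cleavage when sterols are low, and INSIG proteins hold the complex back when sterols are plentiful. LXRs are nuclear receptors that sense oxysterols and switch on export and storage. In T cells, SREBP activity is known to climb with activation and growth, and LXR signalling is known to restrain proliferation.

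The promoters of Hmgcs1, Srebf2 and Srebf1 are shown first. Among the 30 members with a RefSeq promoter window, Hmgcs1 alone held the exact letters of the sterol regulatory element searched for. The Srebf1 and Srebf2 windows shown, chosen after their values were seen, precede starts that the transcript data below refer to. Each window runs 5′ to 3′ on the strand of its gene from 250 bases before the RefSeq start to 50 after it, on GRCm38.p6, the assembly also called mm10. Capitals mark the sterol element TCACNCCAC, the CCAAT box and the GC box GGGCGG, read on either strand (ATTGG and CCGCCC are the reverse complements of the CCAAT and GC boxes), and no marked motif overlaps another. None of the 4 windows holds the E-box CACGTG.
Hmgcs1, chr13:119690101-119690400, plus strand: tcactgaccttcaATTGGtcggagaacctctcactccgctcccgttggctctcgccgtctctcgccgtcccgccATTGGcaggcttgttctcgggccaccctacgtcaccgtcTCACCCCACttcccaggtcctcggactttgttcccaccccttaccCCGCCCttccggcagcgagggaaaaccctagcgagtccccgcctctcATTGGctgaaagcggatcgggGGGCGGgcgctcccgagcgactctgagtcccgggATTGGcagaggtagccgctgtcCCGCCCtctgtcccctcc
Srebf2, chr15:82147019-82147318, plus strand: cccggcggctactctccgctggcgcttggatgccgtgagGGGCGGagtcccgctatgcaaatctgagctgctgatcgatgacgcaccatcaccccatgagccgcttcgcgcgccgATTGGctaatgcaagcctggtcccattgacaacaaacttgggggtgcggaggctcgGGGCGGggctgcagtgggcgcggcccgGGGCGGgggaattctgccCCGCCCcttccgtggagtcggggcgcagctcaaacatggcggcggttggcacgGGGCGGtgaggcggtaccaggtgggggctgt
Srebf1 upstream start, chr11:60220578-60220877, minus strand: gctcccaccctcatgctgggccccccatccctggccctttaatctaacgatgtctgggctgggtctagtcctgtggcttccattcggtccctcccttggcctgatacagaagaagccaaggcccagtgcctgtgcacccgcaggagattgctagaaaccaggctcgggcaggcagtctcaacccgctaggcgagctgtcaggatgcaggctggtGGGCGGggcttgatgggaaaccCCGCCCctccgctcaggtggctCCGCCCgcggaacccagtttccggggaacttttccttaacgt
Srebf1 downstream start, chr11:60210422-60210721, minus strand: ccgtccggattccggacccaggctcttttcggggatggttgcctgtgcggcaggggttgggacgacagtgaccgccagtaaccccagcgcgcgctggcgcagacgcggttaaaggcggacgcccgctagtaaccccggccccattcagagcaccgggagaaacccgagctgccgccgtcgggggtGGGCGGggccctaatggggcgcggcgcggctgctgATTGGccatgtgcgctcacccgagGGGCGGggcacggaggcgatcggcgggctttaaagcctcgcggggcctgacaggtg

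In the Hmgcs1 window the sterol element reads TCACCCCAC and lies at positions -137 to -129 from the RefSeq start, on the strand of the gene. The window also holds 4 ATTGG and 3 GC boxes. The main transcript entries of the gene, Hmgcs1-201 and Hmgcs1-202, start past the end of this window, at chr13:119690446 and chr13:119690464. The Srebf2 window holds 1 ATTGG and 5 GC boxes. The upstream Srebf1 window shown holds 3 GC boxes and no CCAAT box, and the downstream Srebf1 window 1 ATTGG and 2 GC boxes. Another RefSeq start of Srebf1, at chr11:60222581, lies further upstream, near the start of the entry Srebf1-204. Its window, which is not printed, holds 1 CCAAT box and no GC box. RefSeq windows were found for 30 of the 37 genes, 39 windows in all. Npc1, Abcg1, Fdft1, Scd2, Sqle, Fdps and Scd1 had no window and were not searched. Only exact matches were counted, so variants of the sterol element were missed. The sterol element stood in 1 of the 39 (2.56%), against 1.24% of all 32851 windows of the same length. CCAAT boxes stood in 64.1% of the members' windows, against 37.4% of all windows. GC boxes stood in 71.8%, against 35.7%, and E-boxes in 17.9%, against 7.15%. The windows of all genes include those of genes not detected in these cells, and the shares over detected genes alone were not computed. Whether the excess is particular to these genes was thus not tested. These are matches of letters in a short window and say nothing of binding.

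Nearly all of the 37 genes were expressed. At 1 TPM (transcript abundance scaled by effective length and by the depth of the library) or more in all 3 libraries, 36 were detected, against 44.7% of all protein-coding genes. The exception was Scd1. The second quantification, a separate estimate from the same reads that the authors also deposited, likewise gave 36, but there Scd1 passed (1.32, 1.47 and 1.03 TPM) and Nr1h3 did not (1.08, 0.90 and 1.58 TPM). At 10 TPM or more in all 3 libraries there were 19 members, against 25.4% of all protein-coding genes, undetected ones included. The median member stood at 10.6 TPM, while the median protein-coding gene detected at 1 TPM stood at 13.5 TPM. Among the detected protein-coding genes, the median percentile of the members was 41.6. It was 30.8 for the 19 enzymes of the mevalonate, isoprenoid and sterol steps and 78.4 for the genes of SREBP control. Together they held 0.193% of the estimated counts of the genes. Below, values of the 3 libraries are in the order of replicates 1, 2 and 3, levels are TPM summed over all transcript entries of a gene, and errors are SDs over the libraries (n = 3).

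**Figure D1:**
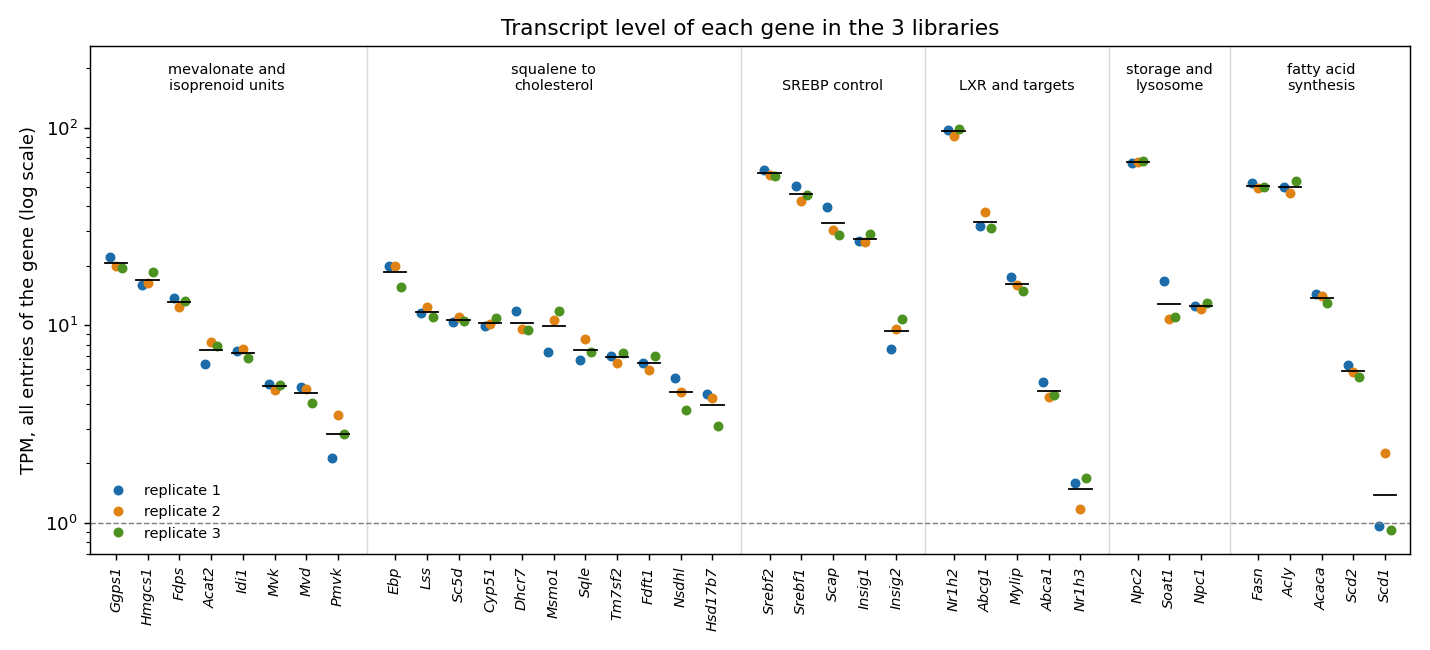
TPM of each of the 37 genes in the 3 libraries, on a log scale and grouped by step, with points for single libraries, bars for means and a dashed line at 1 TPM. Genes of SREBP control other than Insig2 lie above the mevalonate and cholesterol enzymes, Nr1h2 is the highest at 96.0 TPM, and Scd1 is the lowest at 1.38 TPM, with 2 libraries under the line.

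The libraries held 14.99 to 16.88 M estimated counts, of which 28826 to 32315 fell on these genes. A gene with no count could still have a mean of up to 3 counts in a library, and this limit covers counting error only. Markers matched the label of the cells: all 5 T-cell markers (Cd3e, Cd3d, Cd3g, Trac and Lck) were at 178 TPM or more on average, and their sum was 1450 to 1539 TPM. Sums were far lower for the markers of B cells (7.37 to 14.2 TPM over 5 genes), macrophages and monocytes (25.8 to 32.3 TPM over 7), dendritic cells (2.62 to 3.98 TPM over 4), neutrophils (3.14 to 3.29 TPM over 3), natural killer cells (5.14 to 7.03 TPM over 2), erythroid cells (32.7 to 63.8 TPM over 4) and adipocytes or liver (0 to 0.17 TPM over 4, with Plin1 and Alb at 0). In RNA of a cell population, a level set by fewer expressing cells and one set by less RNA per cell cannot be told apart.

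The 8 enzymes from acetyl-CoA to the isoprenoid diphosphates had a median of 7.38 TPM and summed to 78.0, 77.6 and 78.0 TPM. Ggps1, which makes the geranylgeranyl diphosphate used to anchor small GTPases, led them with 22.2, 20.0 and 19.6 TPM. Hmgcs1, the cytosolic HMG-CoA synthase, had 16.1, 16.4 and 18.6 TPM. Fdps, the farnesyl diphosphate synthase before the branch to sterols, had 13.8, 12.4 and 13.3 TPM. The ranges of Ggps1 and Hmgcs1 did not overlap, nor did those of Hmgcs1 and Fdps. Acat2, the cytosolic thiolase that opens the pathway, averaged 7.47 ± 0.99 TPM, and Idi1, the isomerase of the isoprenoid unit, 7.28 ± 0.42 TPM. The kinases and the decarboxylase between them were lower. Mvk, the mevalonate kinase, averaged 4.92 ± 0.16 TPM, and Mvd, which decarboxylates the mevalonate diphosphate, 4.54 ± 0.45 TPM. Pmvk, the phosphomevalonate kinase, had 2.13, 3.50 and 2.82 TPM from a mean of 49.0 counts, the lowest level of the 19 enzymes of the mevalonate, isoprenoid and sterol steps.

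The 11 enzymes of squalene and cholesterol had a median of 9.93 TPM and summed to 101, 104 and 97.7 TPM. Ebp, the isomerase that shifts a ring double bond, had 19.9, 20.0 and 15.7 TPM and was the highest of them on average. Lss, which folds squalene epoxide into lanosterol, followed at 11.7 ± 0.71 TPM. Sc5d, a sterol desaturase, and Cyp51, the P450 enzyme that demethylates lanosterol, stood at 10.6 ± 0.35 and 10.3 ± 0.46 TPM. Dhcr7, the reductase that can take the last step to cholesterol, averaged 10.3 ± 1.27 TPM, and Msmo1, the methyl sterol oxidase, 9.93 ± 2.32 TPM. Neighbours in this run from Lss to Msmo1 overlapped in their ranges.

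Sqle, the squalene epoxidase, had 6.70, 8.57 and 7.35 TPM. Tm7sf2, a sterol reductase, averaged 6.90 ± 0.39 TPM, and Fdft1, the squalene synthase that commits isoprenoids to sterols, 6.45 ± 0.50 TPM. The 2 remaining enzymes act with Msmo1 to remove methyl groups. Nsdhl, the dehydrogenase among them, had 5.44, 4.62 and 3.74 TPM, and Hsd17b7, the ketoreductase, 4.47, 4.29 and 3.10 TPM. All 19 enzymes of these steps, Ggps1 on its side branch included, thus lay between 2.82 and 20.6 TPM with a median of 7.54 TPM, and 6 of them reached 10 TPM in every library.

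Tm7sf2 shares its reaction with Lbr, a nuclear envelope protein that carries a sterol reductase domain. Lbr had 90.0, 87.4 and 78.3 TPM, against 7.03, 6.46 and 7.21 TPM for Tm7sf2, which is 12.3-fold higher (log2 ratio 3.63 ± 0.17, no test, compared after the values were seen). Of 13 companion genes of sterol synthesis and the isoprenoid branch, chosen with earlier results of these data known, 11 were at 1 TPM or more in all 3 libraries. The lowest of that list was Idi2, another isopentenyl diphosphate isomerase gene, which was listed at 0.

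The 5 genes that run SREBP control had a median of 33.0 TPM. On average 4 of them lay above all 19 enzymes of the mevalonate, isoprenoid and sterol steps, with Insig2 the exception. Srebf2, on chr15:82147181-82205379 and coding for SREBP-2, which is known mainly for cholesterol genes, had 61.4, 57.9 and 57.3 TPM. Srebf1, on chr11:60199089-60222581 and coding for SREBP-1, had 50.9, 42.9 and 45.6 TPM. Scap, the escort, had 39.8, 30.3 and 28.8 TPM. Insig2 had 7.59, 9.63 and 10.8 TPM, against 26.9, 26.5 and 28.9 TPM for Insig1, the family member that is itself a known SREBP target. All 9 companion genes of SREBP control were also at 1 TPM or more in all 3 libraries. They ranged from Erlin1, an endoplasmic reticulum membrane scaffold (2.81 ± 0.31 TPM), to Rnf145, an E3 ubiquitin ligase of the same membrane (49.6 ± 3.52 TPM).

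Among the LXR genes, the receptors differed most in level. Nr1h2, which codes for LXR beta, had 98.0, 91.0 and 99.0 TPM, against 1.60, 1.18 and 1.69 TPM for Nr1h3, which codes for LXR alpha. The level of Nr1h3 rests on a mean of 23.3 counts and lies at percentile 1.74 of the detected protein-coding genes, while Nr1h2 lies at percentile 94.9. Macrophages are known to use LXR alpha, and 4 of the 7 macrophage and monocyte markers were at 1 TPM or more in all 3 libraries, with none at 0. The part of such cells in the Nr1h3 level was not tested. In the ordered list of the 37 genes, Nr1h3 and Scd1 are the last and their ranges overlap.

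Abcg1, a sterol exporter and LXR target that is known to limit T-cell proliferation, had 31.8, 37.3 and 31.1 TPM. The other LXR-driven exporter, Abca1, had 5.16, 4.32 and 4.43 TPM. Mylip, the LXR-induced ubiquitin ligase that degrades lipoprotein receptors, averaged 16.2 ± 1.34 TPM. Of 10 companion genes of oxysterols and LXR partners, 7 were at 1 TPM or more in all 3 libraries. The highest was Ncor1, a nuclear receptor corepressor (152 ± 7.25 TPM), and the lowest Ch25h, the cholesterol hydroxylase that makes an oxysterol, which held counts in 1 library (0.05, 0 and 0 TPM).

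Npc2, the small sterol carrier of the lysosome lumen, had 66.6, 67.3 and 67.7 TPM, the second highest level of the 37. Npc1, the lysosomal membrane protein that receives cholesterol from it, had 12.5, 12.1 and 13.0 TPM. Soat1, which esterifies cholesterol for storage, had 16.8, 10.8 and 11.1 TPM, with replicate 1 above the other two. Of 17 companion genes of sterol transport and storage, 13 were at 1 TPM or more in all 3 libraries. Gramd1a, an endoplasmic reticulum protein that moves cholesterol in from the plasma membrane, was the highest of them at 323 ± 10.9 TPM, and Vldlr, a lipoprotein receptor, was the lowest (0, 0 and 0.01 TPM).

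The fatty acid genes spanned a wide range. Fasn, the fatty acid synthase, had 52.8, 49.5 and 50.4 TPM, and Acly, which frees cytosolic acetyl-CoA from citrate, had 50.1, 46.7 and 53.8 TPM. Their ranges overlapped with each other, and that of Acly overlapped with Srebf1. Acaca, the carboxylase that makes malonyl-CoA, was lower at 14.5, 14.0 and 13.0 TPM. The desaturases were lower still, with 6.33, 5.79 and 5.46 TPM for Scd2, against 0.96, 2.27 and 0.92 TPM for Scd1. Of 15 companion genes of fatty acid synthesis and desaturation, 9 were at 1 TPM or more in all 3 libraries, led by the elongase Elovl5 (49.1 ± 2.51 TPM). Scd3, Me1 and Thrsp were listed at 0. In the second quantification Scd3 had 2.21, 1.53 and 2.23 TPM, so whether this close paralogue of Scd1 and Scd2 is listed at 0 depends on the quantification. Of 6 genes of glycerolipid synthesis, 5 were at 1 TPM or more in all 3 libraries. Agpat1 was the highest (21.8 ± 2.43 TPM) and Dgat2 the one below that level (0.51 ± 0.07 TPM), and both are acyltransferases on the way to stored fat.

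Scd1 had the widest relative spread of the 37 genes. Replicate 2 had 2.27 TPM, against 0.96 and 0.92 TPM in replicates 1 and 3. B-cell markers summed to 9.90, 14.2 and 7.37 TPM, with 4 of 5 at 1 TPM or more in all 3 libraries. Erythroid markers summed to 40.8, 63.8 and 32.7 TPM, with 2 of 4 at that level. Neither list had a marker at 0, and both sums were highest in replicate 2. Pax5 (1.64, 1.61 and 1.01 TPM) and Alas2 (0.34, 0.22 and 0.28 TPM) were instead highest in replicate 1. The part of B cells and erythroid cells in the Scd1 level was not tested. By share of reads the contrast was smaller, at 3.53, 5.54 and 2.86 CPM (counts scaled to library depth). A short entry of 329 bases, Scd1-202, held 1.09 of the 2.27 TPM in replicate 2, and the second quantification listed that entry at 0 in all 3 libraries, with 1.32, 1.47 and 1.03 TPM for the whole gene.

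Sorted by mean level, the 37 genes give 36 pairs of neighbours, and in 28 of them the ranges of the 3 libraries overlapped. The other 8 steps were apart. Nr1h2, Npc2, Srebf2 and Fasn followed each other with no overlap, as did Srebf1 and Abcg1, Insig1 and Ggps1, Mylip and Acaca, Scd2 and Mvk, and Pmvk and Nr1h3. Neighbours were thus apart mostly at the top of the order and overlapped from Acaca at 13.8 TPM down to Scd2 at 5.86 TPM.

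Partner genes were compared within each library as log2 ratios of TPM with 0.1 added, by an exact two-sided sign-flip permutation test. With 3 libraries its p-value cannot go below 0.25, which was the value of all 6 pairs, also after Benjamini-Hochberg adjustment over the 6. Nr1h2 exceeded Nr1h3 by a log2 ratio of 5.93 ± 0.19, which is 61.0-fold. Abcg1 exceeded Abca1 by 2.82 ± 0.24 (7.07-fold), and Npc2 exceeded Npc1 by 2.41 ± 0.05 (5.33-fold). Insig2 was below Insig1, with a log2 ratio of -1.56 ± 0.22. Scd2 exceeded Scd1 by 2.12 ± 0.70 (4.35-fold), or by 2.52 without replicate 2. Srebf2 exceeded Srebf1 by 0.35 ± 0.08 (1.27-fold). Each ratio had the same sign in 3 of 3 libraries.

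**Figure D2:**
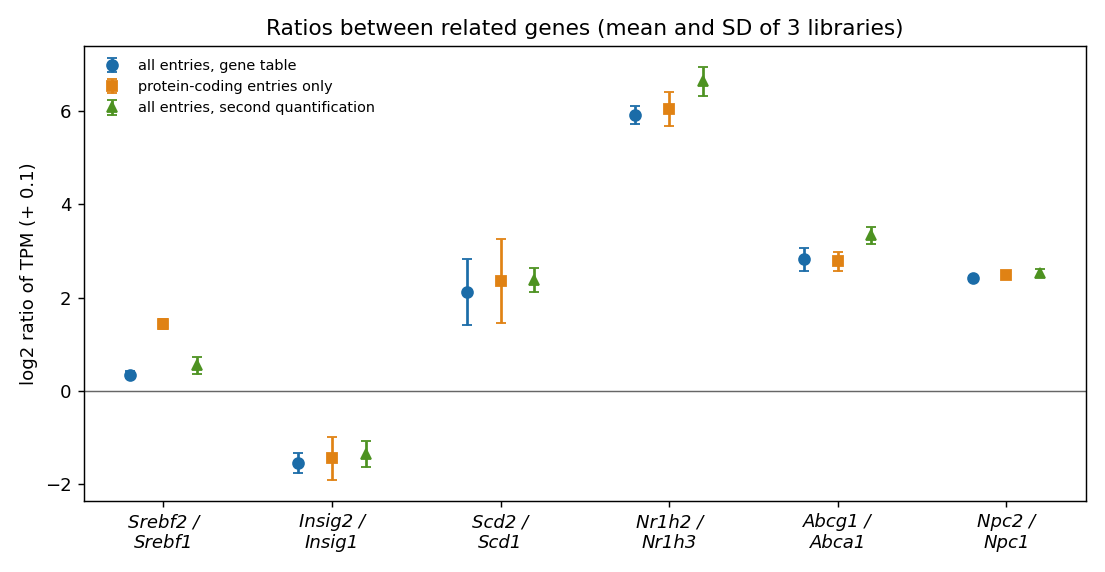
Log2 ratios of TPM (with 0.1 added) for 6 pairs of partner genes, as means and SDs over the 3 libraries, for all entries of the gene table, for protein-coding entries alone and for the second quantification. The ratio of Srebf2 to Srebf1 is 1.43 with protein-coding entries, against 0.35 with all entries, and no ratio changes sign.

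Total RNA holds unspliced and partly spliced transcripts, and the annotation lists such forms as entries of their own. The 37 genes have 237 entries. Protein-coding entries held a median of 77.9% of the TPM of the 36 detected members, against 73.6% for all detected protein-coding genes, and retained-intron entries held 15.9%, against 11.3%. In 3 of the 36 members, protein-coding entries held less than 50% of the TPM, against 22% of the detected protein-coding genes. They were Lss, Srebf1 and Nr1h3. In the second quantification 2 of the 36 were under 50%, against 24.7% of the detected protein-coding genes, since Nr1h3, with a mean of 23.3 counts, had 69.6 ± 27.2% there, against 44.4 ± 9.43% in the first tables.

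Lss was the most extreme. Its protein-coding entries held 24.5 ± 2.33% of its TPM, retained-intron entries 50.2 ± 7.07% and processed-transcript entries (spliced, with no reading frame annotated) 25.3 ± 7.50%. By all entries it was 18th of the 37 genes, and by protein-coding entries alone it was 34th, at 2.85 TPM. In the second quantification the protein-coding share of Lss was 27.0%. Its leading entry differed between the quantifications, being Lss-203, a retained-intron form, in the second and Lss-202, a processed transcript of 352 bases, in the first.

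For Srebf1 the protein-coding share was 35.7 ± 3.29% and the rest was processed transcripts. Srebf1-201, the full-length form that starts at chr11:60220604 in the upstream window printed above, had 13.4, 15.0 and 13.6 TPM, which was 30.4 ± 4.43% of the gene. Srebf1-204, a processed transcript of 367 bases that starts further upstream, held 20.0 ± 3.94%, and Srebf1-210 held 14.8%. Smaller shares fell to Srebf1-208 (7.82%), Srebf1-211 (6.43%) and Srebf1-206 (5.18%), all processed transcripts. The second quantification listed Srebf1-204 at 0 in all 3 libraries. Summed over protein-coding entries, Srebf1 stood at 16.5 TPM and Srebf2 at 44.7 TPM.

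The upstream start is the one known for SREBP-1a and the downstream start the one known for SREBP-1c, the form that dominates in liver and fat. Of the protein-coding TPM of Srebf1, the second quantification gave 57.04 ± 7.90% to Srebf1-201 and 32.3 ± 7.53% to Srebf1-207, which starts at chr11:60210465 in the downstream window. The first tables gave 84.9 ± 5.68% to Srebf1-201 and 5.38 ± 4.66% to Srebf1-207, with 1.30, 0 and 1.37 TPM for Srebf1-207. The upstream form led the downstream form in both, while the share of the downstream form depended on the quantification. The remaining coding entry, Srebf1-203, which starts inside the gene, held 10.6% and 9.73%.

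Srebf2 had a simpler make-up. Srebf2-201 had 38.7, 41.2 and 39.2 TPM, which was 67.5 ± 4.09% of the gene, and it begins within the printed Srebf2 window. The retained-intron entries Srebf2-205 (15.4%) and Srebf2-207 (8.35%) and the short coding entry Srebf2-202 (7.61%) made up most of the remainder. Protein-coding entries as a whole held 75.8 ± 2.05%.

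Other members with large retained-intron shares were Nr1h2 (48.2 ± 2.08%), Fasn (42.9 ± 2.22%), Ebp (40.3 ± 8.01%), Insig1 (38.0 ± 4.72%) and Npc2 (36.1 ± 1.83%). Acat2, Pmvk, Sc5d and Mylip had all of their TPM on protein-coding entries. Ggps1 was the member with the largest share on nonsense-mediated decay entries, at 16.4 ± 4.80%. Soat1 was spread over many forms, with Soat1-201 leading at 30.0% ahead of Soat1-207 (19.2%), Soat1-203 (14.9%), Soat1-206 (11.8%), Soat1-208 (10.9%), Soat1-204 (6.77%) and Soat1-205 (6.39%). No entry of Nr1h3 reached 1 TPM on average, and Nr1h3-207 (35.4%), Nr1h3-202 (28.1%), Nr1h3-206 (20.2%) and Nr1h3-204 (12.0%) shared what there was.

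**Figure D3:**
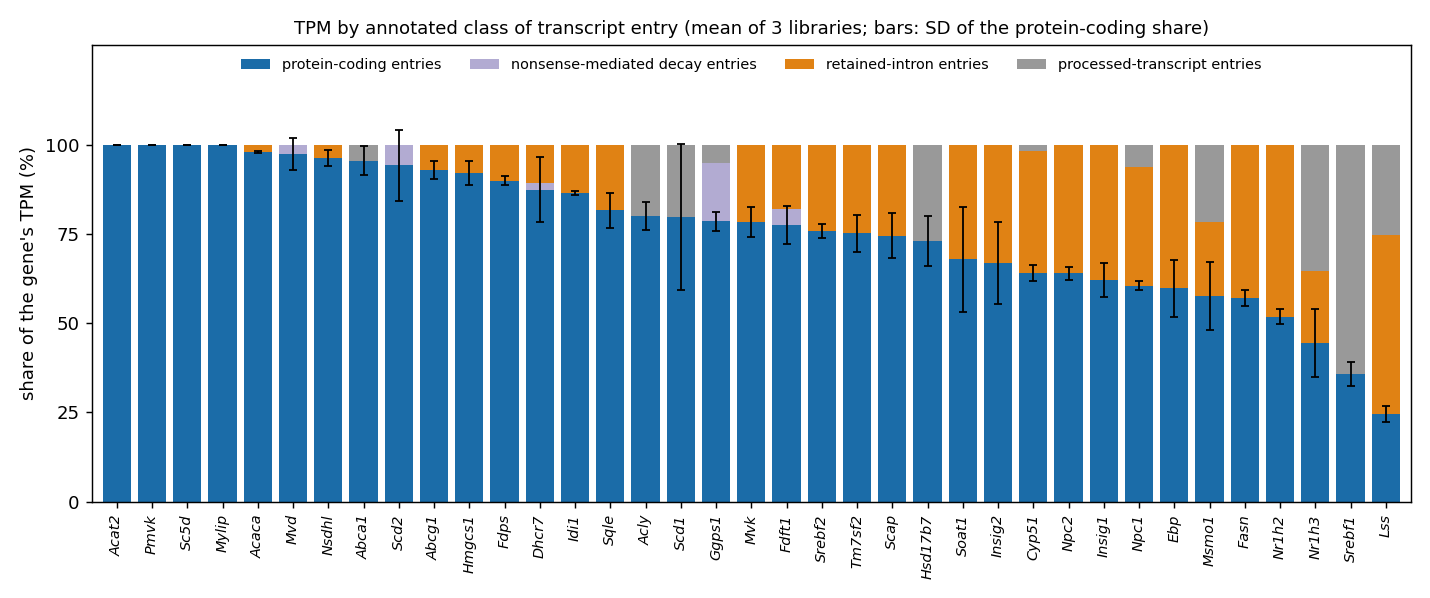
Share of the TPM of each gene on protein-coding, nonsense-mediated decay, retained-intron and processed-transcript entries, as means over the 3 libraries, with bars for the SD of the protein-coding share. Genes run from 100% protein-coding at the left to Lss with 24.5% at the right, next to Srebf1 with 35.7%.

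With 2 or more entries at 1 TPM there were 28 members. In 27 of them the leading entry of the first tables was protein-coding, with Lss-202 the exception. Over the detected protein-coding genes with 2 or more such entries, that share was 84.1%. The second quantification put the same entry first in 18 of the 28 members (64.3%), against 71.5% of those genes. Among these, Insig1-201 held 62.0%, Cyp51-201 64.1%, Dhcr7-202 71.4%, Sc5d-202 73.5%, Fdft1-201 72.0%, Mylip-201 80.6%, Npc1-201 60.5%, Npc2-201 63.9% and Abcg1-201 57.5% of their genes in the first tables. For 10 genes the lead differed: Acaca, Fasn, Hmgcs1, Insig2, Lss, Mvk, Nr1h2, Pmvk, Soat1 and Srebf1. The leads of the second quantification were not protein-coding for Lss (Lss-203), Mvk (Mvk-204, 30.3%) and Srebf1 (Srebf1-210, 21.7%). The share of such leads over all genes was not computed for that quantification. For Fasn the second quantification led with Fasn-205 (37.1%) and the first tables with Fasn-201 (29.5%), both protein-coding. For Hmgcs1 it led with Hmgcs1-201 (51.0%), against Hmgcs1-202 (63.6%) in the first tables.

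At the gene level the quantifications were closer. The ratio of the second to the first had a median of 1.27 over the 36 detected members, in a range from 0.797 to 1.62, against a median of 1.31 over all detected protein-coding genes. More than 1.5-fold from that general ratio lay 1 of the 36 members, Nr1h3, against 5.01% of detected protein-coding genes. Nr1h3 had 1.19 TPM in the second quantification and 1.49 TPM in the first. The mean TPM of 34 of the 37 members differed between the quantifications by more than 1 SD over the libraries, against 89.8% of detected protein-coding genes. With the second quantification divided by the general ratio, a step added after the data were seen, it did so in 17 of the 37, against 55% of those genes.

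The spread between the 3 libraries was set against that of other genes. In edgeR's quasi-likelihood fit with an intercept alone, a gene is called when its spread exceeds that of genes of like abundance, at a Benjamini-Hochberg adjusted p below 0.05. None of the 37 members was called (0), against 75 of 13280 genes tested (0.565%). At an unadjusted p below 0.05 there was 1 member, against 5.69% of the genes tested, and by DESeq2's marking of outlying dispersion there were 0. The 1 member was Sqle, with a p of 0.0417 in edgeR's test, adjusted p = 0.841. Sqle had 18.0, 24.2 and 21.5 CPM.

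The coefficient of variation (CV) of TPM had a median of 8.13% over the members, against 8.58% over detected protein-coding genes. The median that counting error alone gives the members was 4.69%. Under 20% lay 33 of the 37, against 87.5% of detected protein-coding genes. The smallest CV was that of Npc2, at 0.844% in TPM. In CPM its CV was 3.51%, and the smallest was that of Fasn, at 1.16%. Above 20% in TPM were Scd1 (55.5%), Soat1 (26.3%), Pmvk (24.3%) and Msmo1 (23.4%). Among genes of like depth, 3 members lay above the 95th percentile, namely Scd1, Soat1 and Scap (18.0%), against 5% of genes by construction. Above the median of their depth lay 18 members, and 19 lay below it.

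**Figure D4:**
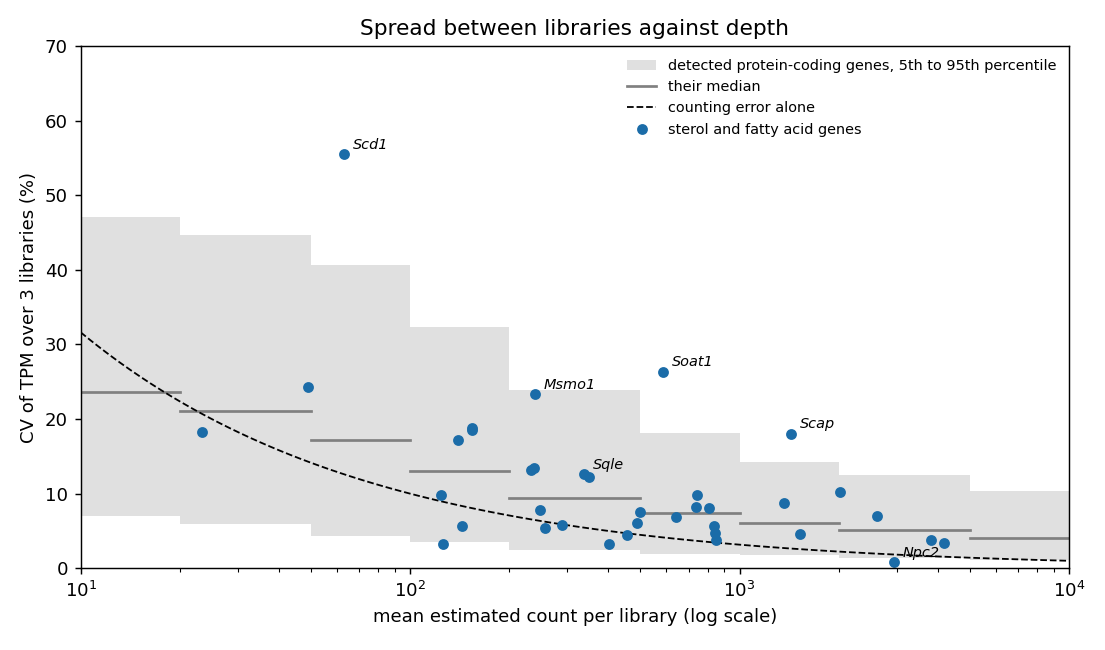
CV of TPM over the 3 libraries against the mean estimated count per library (log scale), with points for the 37 genes, grey blocks from the 5th to the 95th percentile of detected protein-coding genes in bins of depth, lines at their medians and a dashed curve for counting error alone. Scd1 at 55.5%, Soat1 at 26.3% and Scap at 18.0% lie above the grey blocks. Npc2 at 0.844% lies below the counting curve, as do Mvk, Idi1, Fdps, Cyp51, Tm7sf2, Sc5d and Nr1h3.

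Some of this spread went together with the effective length, the mean length over which reads of a gene are spread given its mix of entries. It is estimated anew in each library, and TPM divides by it. CPM, the estimated count scaled to the depth of the library alone, does not use it. In CPM, a look chosen after the data were seen, the members had a median CV of 6.24%, against 5.87% for detected protein-coding genes. For 9 members, however, the CV was larger in CPM than in TPM. For Scap, CPM was 90.6, 86.4 and 91.6, a CV of 3.07%, while its effective length was 2257, 2772 and 3020 bases. Scap-201, the full-length entry, had 19.6, 19.2 and 20.1 TPM. The short entries Scap-202 (358 bases; 7.43, 3.48 and 0.97 TPM) and Scap-205 (597 bases; 6.07, 1.37 and 1.45 TPM) held most of the excess of replicate 1.

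Msmo1 and Soat1 showed the same kind of gap between the scales. Msmo1 had 7.32, 10.7 and 11.8 TPM, but 13.5, 15.8 and 15.5 CPM, a CV of 8.35%, with effective lengths of 1829, 1437 and 1254 bases. Soat1 had 40.4, 32.0 and 36.4 CPM, a CV of 11.7%, and replicate 1 was the highest on both scales. Its short entry Soat1-205 (452 bases) had 3.03, 0.12 and 0 TPM.

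For Insig2 the scales ran in opposite directions. Its TPM was lowest in replicate 1 (7.59, 9.63 and 10.8 TPM), while its CPM was highest there (9.90, 8.34 and 7.78). The effective length was 1292, 843 and 687 bases. Insig2-201, of 2697 bases, had 2.79, 2.04 and 2.13 TPM, and Insig2-209, of 204 bases, had 0, 0 and 4.04 TPM in the first tables and was listed at 0 in all 3 libraries of the second quantification. No statement on the order of the libraries for Insig2 is therefore possible from these tables.

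**Figure D5:**
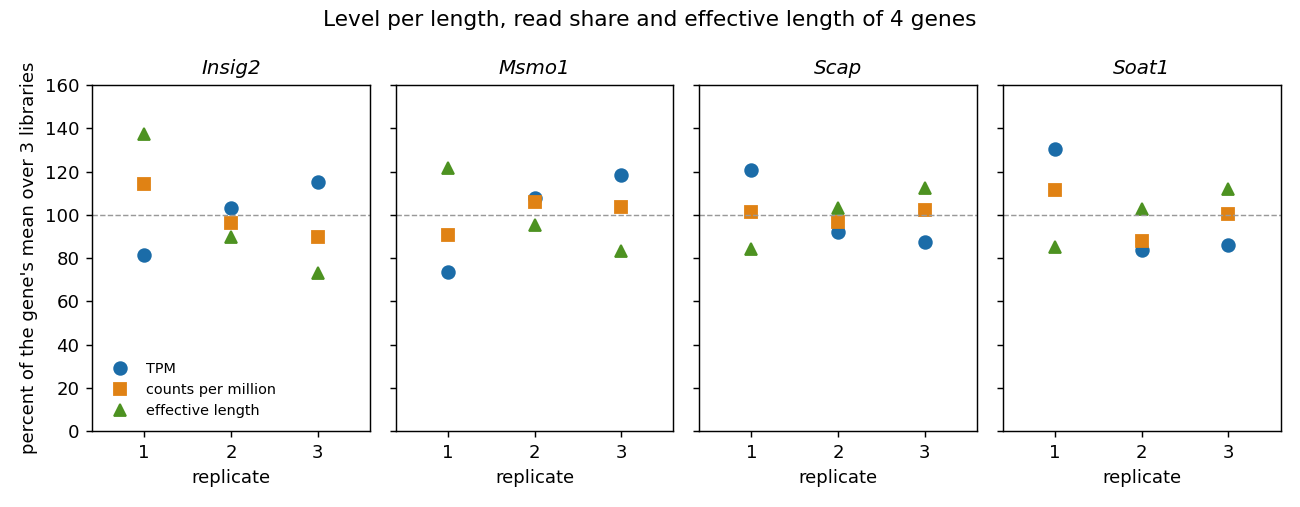
TPM, CPM and effective length in each replicate, each as a percent of its mean over the 3 libraries, for the 4 genes with the largest CV of effective length among members with a mean count of at least 100. In Scap, CPM stays between 96.5% and 102% while TPM spans 87.5% to 121%, and in Insig2 TPM is lowest and CPM highest in replicate 1.

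Entries that the first tables put at 1 TPM or more and the second quantification put at 0 in every library numbered 8 of 119 for the members (6.72%), against 4.02% for all detected protein-coding genes. This count too was made after the data were seen. In the members their median length was 355 bases, against 1530 bases for the other entries at 1 TPM or more. They were Nr1h2-211, Srebf1-204, Scap-202, Lss-202, Lss-205, Insig2-209 and Insig2-206, of 204 to 425 bases, and Acly-207, of 4162 bases.

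Cycling-cell markers differed between the libraries, with sums of 26.8, 17.4 and 11.3 TPM over 5 genes, 3 of them at 1 TPM or more in every library and none at 0. Of these, Mki67 and Top2a were called for excess spread by edgeR (adjusted p = 0.00171 and 0.0119). The TPM of 10 of the 37 members was highest in replicate 1 and lowest in replicate 3, close to the 27.4% of detected protein-coding genes. In CPM 6 members (16.2%) had that order, below the 21.9% of detected protein-coding genes. Mvd, Ggps1, Nsdhl, Hsd17b7 and Mylip kept it on both scales, while Scap had it in TPM but not in CPM (90.6, 86.4 and 91.6). The part of cycling cells in those levels was not tested. No companion gene was called either (0 of 56 tested by edgeR, 1 at an unadjusted p below 0.05, which was Lrp1, a lipoprotein receptor).

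Reads shared with other genes touch a few members. The posterior SD of the count, which reflects reads that several genes can claim, exceeded 1% of the count in 4 members: Tm7sf2 (6.79%), Idi1 (2.06%), Acaca (1.82%) and Scd1 (1.39%), and it was 0 in 28. Tm7sf2 overlaps Vps51 by 532 bases on the same strand. Mvd lies within the span of Gm20388 on the opposite strand, a gene with a mean of 440.7 counts against 124 for Mvd. In all, 14 members overlap another gene on the opposite strand and 9 on the same strand. How common such overlaps and such posterior SDs are over all genes was not computed. The kit keeps strand, but whether the counting used it is not given in the sources used here, so the level of Mvd is uncertain in that respect.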

How the data were processed

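Per the labels, total RNA of 3 splenic CD3 T-cell samples was sequenced with a directional kit and spike-ins. The tables named first here (1 per gene, 1 per transcript entry), deposited by the authors, hold estimated counts, TPM, FPKM, posterior mean TPM, effective lengths and the percent of a gene's TPM per entry (not used, shares being computed from TPM). The second quantification, also deposited, holds estimated counts and TPM per transcript entry, summed here per gene. Per the deposited README files, the first tables came from alignments to mm10 with GENCODE annotation M21 and the second from an index of the same annotation, and neither aligner nor quantifier is given in the sources used here. A further measure of shared reads, the posterior SD of the count, is in the tables deposited by the authors.

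Members were matched by symbol to the gene identifier. The members, the companion and marker lists and the tests were chosen with earlier results of these data known. Detection required 1 TPM in all 3 libraries. Entries were classed by annotated transcript type. Spread was tested in edgeR 4.0.16 (R 4.3.3) on rounded estimated counts with TMM scaling after filterByExpr, with an intercept-only robust quasi-likelihood fit, residual dispersions set against the trend by an F test, and Benjamini-Hochberg adjustment over all 13280 genes tested. This spread test was first tested on simulated counts. DESeq2 1.42.0 marked outlying dispersions as an alternative. Ratios of partner genes used exact two-sided sign-flip permutation tests of log2(TPM + 0.1), which understate the change of low genes. Libraries were compared in pairs by chi-square per degree of freedom, which was 4.20 to 5.25, so no library is a copy of another. These values cannot tell technical repeats from separate animals.

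Named are all members, the highest and lowest companion of each list and any called for excess spread, the marker genes, leading entries, and the entries over 5% of Srebf1, Srebf2, Nr1h3 and Soat1. Other entries, Lbr, Scd3, Lrp1 and the Srebf1 and Srebf2 promoters were chosen after their values were seen. Promoter windows (250 bases before and 50 after a start) are from RefSeq on GRCm38.p6 and were found for 30 members. The companion symbol Spring had no match. Coordinates are 1-based on mm10. Results were recomputed with FPKM, posterior mean TPM, the second quantification, a pseudocount of 1, other detection minimums, protein-coding entries alone, other filters and scalings, and each replicate left out. Python 3.11.15 was used for all other steps.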

Additional observations from a re-analysis of the deposited data

How the results depend on the processing

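Counts of members detected at 1 TPM or more in all 3 libraries were 36 in the second quantification, where Nr1h3 and not Scd1 was the member below, 36 in FPKM and without any 1 replicate, and 37 by posterior mean TPM, 37 at a minimum of 0.5 TPM and 35 at 2 TPM. No member was called for excess spread by edgeR or DESeq2 under any alternative run, while calls over all genes ranged from 28 with a non-robust fit to 303 with no filter, and members at an unadjusted p below 0.05 from 0 to 3. With a mean count of at least 100, 34 members were tested. No ratio of partner genes reversed. In the second quantification the log2 ratio was 0.54 for Srebf2 over Srebf1, 6.65 for Nr1h2 over Nr1h3, 3.34 for Abcg1 over Abca1 and 2.53 for Npc2 over Npc1. With a pseudocount of 1 it was 5.29 for Nr1h2 over Nr1h3 and 2.33 for Npc2 over Npc1. By posterior mean TPM it was -1.17 for Insig2 over Insig1, 5.52 for Nr1h2 over Nr1h3 and 2.32 for Npc2 over Npc1. With protein-coding entries alone it was 1.43 for Srebf2 over Srebf1 and 2.49 for Npc2 over Npc1. The cause of these shifts was not tested. Under all other alternatives run, these 6 ratios moved by less than 1 SD. Leaving out each replicate gave 0.30 to 0.38 for Srebf2 over Srebf1, -1.63 to -1.43 for Insig2 over Insig1, 1.88 to 2.52 for Scd2 over Scd1, 5.82 to 6.00 for Nr1h2 over Nr1h3, 2.69 to 2.93 for Abcg1 over Abca1 and 2.39 to 2.44 for Npc2 over Npc1. Mean TPM moved by more than 1 SD for 34 of 37 members in the second quantification (89.8% of detected protein-coding genes), or 17 once the general ratio of 1.31 was divided out (55% of those genes), 25 with protein-coding entries alone and 7 by posterior mean TPM, and for 0 without any 1 replicate. For protein-coding entries alone and for posterior mean TPM, the share over all genes was not computed. CPM, added after the data were seen, lowered the median CV of the members to 6.24%, against 8.13% in TPM, but raised the CV of 9 members. No paired analysis was possible because all 3 libraries form 1 group, so no replicate number pairs samples of different groups; the ratios above pair genes within a library. Depth limits Nr1h3, Pmvk and Scd1 most, with mean counts of 23.3, 49.0 and 63.0.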
